A study of Mus musculus with 6 samples.

Results

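The genes described are 10 lipid droplet proteins and lipases, picked by symbol out of 18444 genes listed in the series: *Plin2*, *Plin3*, *Plin4*, *Plin5*, *Cidea*, *Cideb*, *Cidec*, *G0s2*, *Pnpla2* and *Pnpla3*. All 10 were listed in each of 6 libraries of liver RNA from male mice of the strain labelled C57BL/6 (C57BL/6J in the methods). The labels give an age of 6 to 8 weeks, which with the length of the treatments is taken here as the age at the start. In the diet model, the groups were SD (labelled as a chow diet control), HFD (labelled NASH) and HFD plus JT003, with 16 weeks of diet and daily JT003 over 4 weeks. In the CCl4 model, the groups were corn oil (the vehicle), CCl4 in corn oil every 3 days for 6 weeks (labelled as fibrosis), and CCl4 plus JT003 for 3 weeks. JT003 is a peptide derived from adiponectin that activates both adiponectin receptors, AdipoR1 and AdipoR2. The methods also describe a NASH model in which a methionine and choline deficient diet was added at the end of the HFD. The labels name no such diet, and which of these models the HFD libraries come from is not stated in the sources used here. The mice were fasted for 8 h before sacrifice. Each condition had 1 library, and whether a library held 1 mouse or a pool of the 6 mice per group is not stated in the sources used here. Every comparison below is therefore between libraries, has no replicate check, and carries intervals that cover counting error only.

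Liver cells store triglyceride in lipid droplets, whose surface is coated by proteins. Perilipins (Plin proteins) shield the stored lipid from lipases, CIDE proteins enlarge droplets by passing lipid from one to another, and adipose triglyceride lipase, encoded by *Pnpla2*, starts the release of fatty acids and is inhibited by G0s2. Several of these genes are known targets of PPARα, the fatty acid sensor active in the fasted liver, and *Cidec* is also a known target of PPARγ in fatty liver.

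The sequences upstream of *Plin2* and *Cidec* are shown because these genes were called lower in 4 and in all 6 of the comparisons below. They are the 250 bases before each annotated start site, from RefSeq on build GRCm38.p6, whereas the deposited values were made on mm9. *Plin2* lies at chr4:86670060-86670309, minus strand, and the capitals mark a match on the opposite strand, with 2 mismatches, to the PPAR element, a direct repeat of AGGTCA with 1 base between the copies. *Cidec* has 2 annotated starts, preceded by chr6:113435761-113436010 and chr6:113434765-113435014, both on the minus strand, and holds no capitals because no searched motif matched.
Plin2: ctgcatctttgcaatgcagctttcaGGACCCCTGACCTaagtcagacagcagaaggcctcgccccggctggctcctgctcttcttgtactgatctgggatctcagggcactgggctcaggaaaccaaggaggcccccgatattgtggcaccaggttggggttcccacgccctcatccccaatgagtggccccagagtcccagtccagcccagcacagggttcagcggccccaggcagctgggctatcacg
Cidec, first start: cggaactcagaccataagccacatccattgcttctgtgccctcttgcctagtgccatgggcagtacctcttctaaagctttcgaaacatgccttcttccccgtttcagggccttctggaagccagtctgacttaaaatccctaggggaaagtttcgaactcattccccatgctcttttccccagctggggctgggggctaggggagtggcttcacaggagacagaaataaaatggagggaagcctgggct
Cidec, second start: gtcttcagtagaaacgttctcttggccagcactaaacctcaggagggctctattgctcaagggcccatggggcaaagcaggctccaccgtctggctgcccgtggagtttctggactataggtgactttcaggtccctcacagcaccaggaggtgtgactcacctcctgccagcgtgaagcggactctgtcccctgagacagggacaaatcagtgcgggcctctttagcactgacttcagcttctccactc
Windows from 250 bases before to 50 after a start were found for 9 of the 10 genes, 11 windows in all. With up to 2 mismatches on either strand, the PPAR element was present in the window of *Plin2*, 225 bases before the start, and in 3.86% of 32851 mouse promoters. The E-box CACGTG was also in the *Plin2* window, beginning 4 bases before the start, and in 7.15% of all promoters. TATAAA was found for *Cideb* (13.6% of promoters), and TGACG for *G0s2* and *Pnpla3* (20.8%). A match is a description of letters, and a missing match says nothing of the factor.

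The libraries held 19374236 to 20184557 rounded expected counts. Levels of different genes are compared as FPKM, which is per length, and libraries as log2 ratios of counts scaled by TMM over the 3 libraries of a model. For a call, the log2 ratio had to reach 1 in either direction, with an adjusted p-value under 0.001 in an exact conditional binomial test on the reads (Benjamini-Hochberg over all genes tested). Each ratio is followed by its 95% interval. Over all genes, the median log2 ratio lay between -0.01 and 0.03 in the 6 comparisons.

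*Plin2* had the highest FPKM of the 10 genes in all 6 libraries. *G0s2* came second in SD, corn oil, CCl4 and CCl4 plus JT003, and *Cideb* in both libraries of the high-fat diet. The FPKM of all 10 summed to 2386 in SD, 805 in HFD, 719 in HFD plus JT003, 1482 with corn oil, 1566 with CCl4 and 1053 with CCl4 plus JT003. *Plin2* alone made up 61.9% of that sum in SD, the highest share, and 33.5% in CCl4 plus JT003, the lowest. Without *Plin2*, the sums were 909, 402, 385, 883, 772 and 700 in the same order, with both libraries of the high-fat diet again the lowest. FPKM is not scaled by TMM, whose factors within the CCl4 model were 0.884 for corn oil and 1.04 for CCl4. The order of close FPKM values can therefore differ from the scaled ratio. *Cideb* had 259 FPKM in corn oil and 269 in CCl4, but a log2 ratio of -0.18. *Cidea* and *Pnpla3* were the least abundant members in SD, at 0.17 and 0.12 FPKM.

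**Figure D1:**
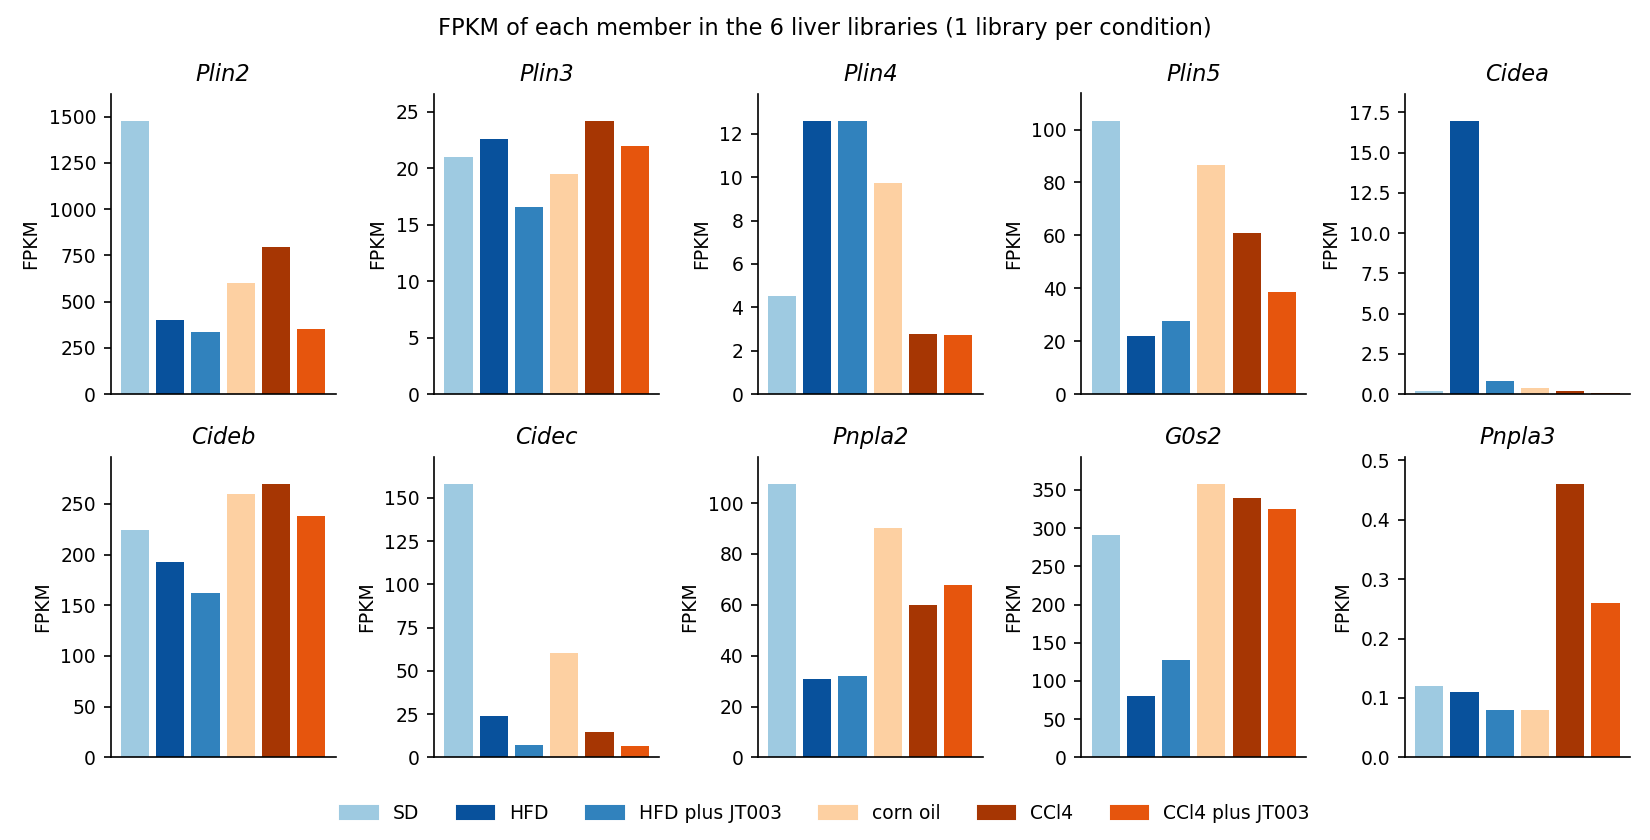
FPKM of each of the 10 genes (vertical axes from 0, a scale for each gene) in the 6 libraries, 1 bar per library with no error bar because each condition had 1 library. *Plin2* and *Cidec* peak in SD at 1477 and 158 FPKM, *Cidea* in HFD at 17.0 FPKM, and *Cideb* stays between 162 and 269 FPKM.

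**Figure D2:**
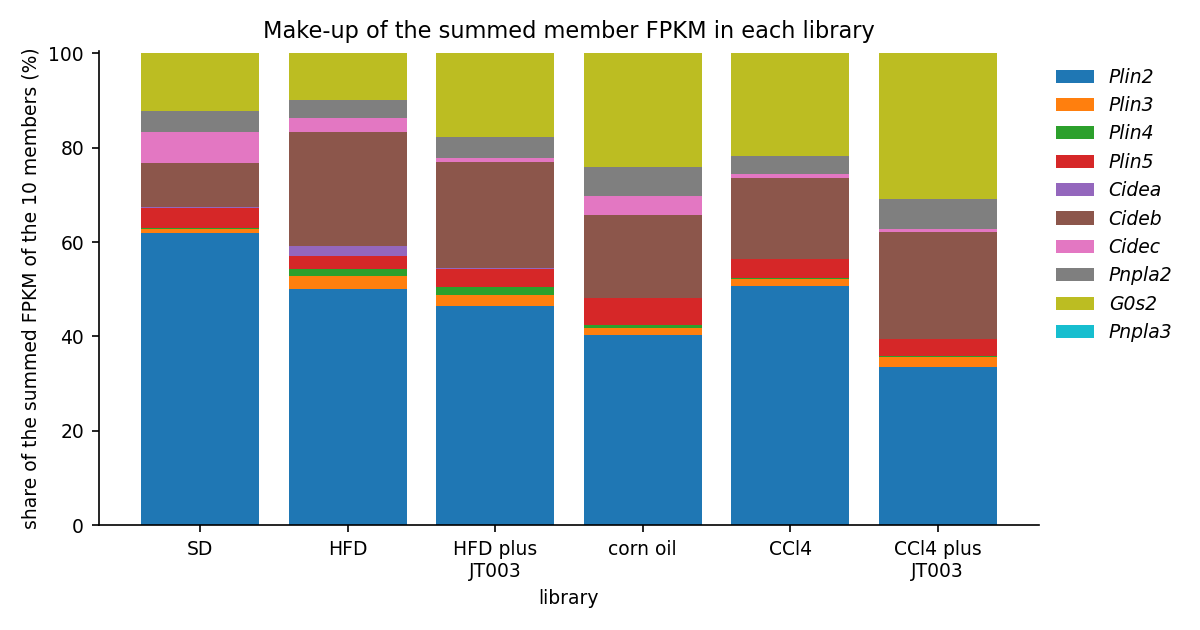
Share of each gene in the summed FPKM of the 10 genes (%), 1 stacked bar per library. *Plin2* takes 61.9% of the bar in SD and 33.5% in CCl4 plus JT003.

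The first question was how the high-fat diet liver differed from the SD liver. Of the 10 genes, 2 were called higher, *Cidea* and *Plin4*, and 5 lower, *Cidec*, *Plin5*, *Plin2*, *G0s2* and *Pnpla2*. Over all 16973 genes tested, 2.92% were called higher and 2.46% lower. The median log2 ratio of the 10 genes was -1.13, beside -0.00 for all genes. With an assumed coefficient of variation of 0.4 between livers, *Cidea* alone was still called. In bulk tissue, fewer cells of a type and less RNA per cell cannot be told apart.

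*Plin2*, the main perilipin of hepatocytes, had 1477 FPKM in SD, 403 in HFD, 334 in HFD plus JT003, 598 in corn oil, 794 in CCl4 and 353 when JT003 was added to CCl4. SD was the high library, and the HFD library stood below both controls. Its HFD count was 3.99-fold lower than in SD (15017 against 56306 reads, log2 ratio -2.00, -2.02 to -1.97). Against the corn oil library, HFD was 1.73-fold lower (log2 ratio -0.79, -0.82 to -0.76), under the threshold of the call.

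*Plin5*, a perilipin of oxidative tissues that brings droplets to mitochondria, had 103 FPKM in SD, 22.0 in HFD, 27.8 in HFD plus JT003, 86.5 in corn oil, 61.1 in CCl4 and 38.7 when JT003 was added to CCl4. Both libraries of the high-fat diet lay below every other library. The HFD count was 5.14-fold lower than in SD (log2 ratio -2.36, -2.47 to -2.26) and 4.59-fold lower than in corn oil (-2.20, -2.31 to -2.09). The *Plin5* call therefore stood with either control, whereas that of *Plin2* stood with SD only.

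*Plin4*, a perilipin best known from fat and muscle, went the other way. It had 4.51 FPKM in SD, 12.59 in HFD, 12.60 in HFD plus JT003, 9.73 in corn oil, 2.76 in CCl4 and 2.73 when JT003 was added to CCl4. HFD was 2.55-fold above SD (log2 ratio 1.35, 1.21 to 1.50), but only 1.11-fold above corn oil (0.15, 0.04 to 0.26). The corn oil library itself was called 2.30-fold above SD (1.20, 1.06 to 1.36), so the call in HFD rests on the SD library. *Plin3*, which moves from the cytosol to new droplets, ranged from 16.6 FPKM in HFD plus JT003 to 24.2 in CCl4 and was called in no comparison.

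*Cidea*, a CIDE protein of brown fat that also appears in fatty liver, was close to undetected outside the HFD library. The reads were 4 in SD, 386 in HFD, 18 in HFD plus JT003, 9 in corn oil, 5 in CCl4 and 2 when JT003 was added to CCl4, or 0.17, 16.98, 0.79, 0.40, 0.22 and 0.09 FPKM. The HFD library alone was high. The log2 ratio of HFD to SD was 5.94 (5.13 to 8.38), rank 4 among the increases of 9568 genes that reached 100 counts in either library. Against corn oil it was 4.92 (4.24 to 6.32). Below the HFD library, no neighbouring pair in the order of *Cidea* levels had an interval that left out 0. Pairs farther apart did so without being called. HFD plus JT003 against SD had a log2 ratio of 1.65 (0.45 to 4.08), and CCl4 plus JT003 against corn oil -1.66 (-5.72 to -0.20).

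Markers of fat cells were examined beside *Cidea*. In the HFD library, *Adipoq*, the adipocyte hormone adiponectin, and *Ucp1*, the brown fat uncoupling protein, had 0 reads, and *Plin1*, the adipocyte perilipin, and *Retn* had 1 read each, beside 386 reads of *Cidea*. Of 9 adipocyte markers tested in HFD against SD, 3 were called higher and 0 lower: *Cfd* (log2 ratio 6.76), *Car3* (3.72) and *Adrb3*, the beta-3 adrenergic receptor (32 and 144 reads, 2.01). *Fabp4*, the fatty acid binding protein of fat cells and macrophages, had 260 reads in SD and 164 in HFD (-0.75, not called). With JT003, 1 marker was called lower, *Cfd* (-1.46). The part of adipose RNA in the *Cidea* values was not tested. The summed FPKM of the 11 listed adipocyte markers found (of 13) was 113 in SD, 1354 in HFD, 1626 in HFD plus JT003, 349 in corn oil, 505 in CCl4 and 312 when JT003 was added to CCl4. *Car3*, which liver also expresses, made up most of it, with 91.53 FPKM in SD and 1312.48 in HFD. *Cfd*, which encodes adipsin, had 2 reads in SD, 454 in HFD, 166 in HFD plus JT003, 175 in corn oil, 2 in CCl4 and 0 when JT003 was added to CCl4.

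*Cidec*, the CIDE protein of large droplets, moved opposite to *Cidea* with the diet. It had 158 FPKM in SD, 23.9 in HFD, 6.86 in HFD plus JT003, 60.02 in corn oil, 14.6 in CCl4 and 6.40 when JT003 was added to CCl4. SD was highest, and the JT003 libraries of both models were the lowest, their own log2 ratio of 0.21 having an interval of -0.06 to 0.49. HFD was 7.19-fold below SD (log2 ratio -2.85, -2.96 to -2.74) and 2.92-fold below corn oil (-1.55, -1.67 to -1.43). The ratio of *Cidea* to *Cidec* FPKM was 0.00108 in SD and 0.712 in HFD. *Cideb*, the CIDE protein of hepatocytes that lipidates secreted lipoproteins, had 224 FPKM in SD and 193 in HFD (log2 ratio -0.34, -0.40 to -0.28) and was called in no comparison.

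*Pnpla2* had 107 FPKM in SD, 31.0 in HFD, 31.9 in HFD plus JT003, 90.1 in corn oil, 59.9 in CCl4 and 67.8 when JT003 was added to CCl4. *G0s2*, the inhibitor of the enzyme it encodes, had 290 FPKM in SD, 80.2 in HFD, 127 in HFD plus JT003, 358 in corn oil, 339 in CCl4 and 324 when JT003 was added to CCl4. The 2 libraries of the high-fat diet were the lowest for lipase and inhibitor alike. *Pnpla2* was 3.77-fold below SD in HFD (log2 ratio -1.92, -2.00 to -1.84) and 3.39-fold below corn oil (-1.76, -1.84 to -1.68). *G0s2* was 3.94-fold below SD (-1.98, -2.07 to -1.89) and 5.19-fold below corn oil (-2.38, -2.47 to -2.29). Their FPKM ratio, *G0s2* to *Pnpla2*, was 2.70 in SD and 2.59 in HFD, since both were lower by a similar factor. *Pnpla3*, a relative of *Pnpla2* found on droplets, had 11 reads in SD and 10 in HFD (log2 ratio -0.19, -1.62 to 1.15), and a difference in either direction was not detectable at this depth.

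**Figure D3:**
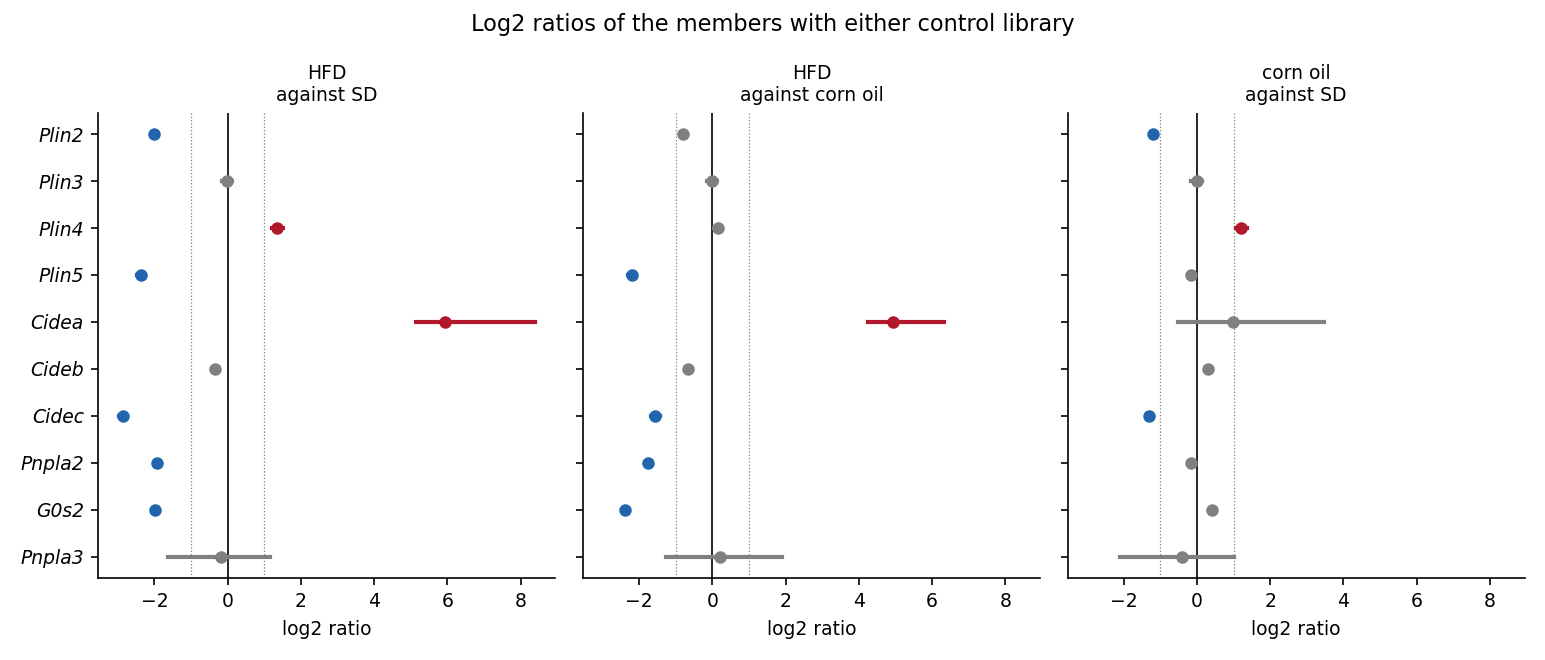
Log2 ratio of each gene (points, horizontal axis) with its 95% counting interval (lines) for HFD against SD, HFD against corn oil, and corn oil against SD. Red marks genes called higher, blue genes called lower and grey genes not called, with dotted lines at -1 and 1. *Plin2* and *Plin4* are coloured against SD (-2.00 and 1.35) and grey against corn oil (-0.79 and 0.15).

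The controls themselves differed. Corn oil was called below SD for *Cidec* (log2 ratio -1.30, -1.37 to -1.22) and *Plin2* (-1.21, -1.23 to -1.18), and above it for *Plin4*. Of all 17018 genes tested between the controls, 2.18% were called higher and 3.24% lower in corn oil. The remaining 7 genes were not called, and in HFD against corn oil 5.11% of all genes were called higher and 3.32% lower, with *Cidea* higher and 4 of the 10 lower. Between the controls *Plin5* and *Pnpla2* differed by a log2 ratio of -0.16 each. These control comparisons used TMM over all 6 libraries and were chosen after the data were seen. With 1 library for each control, diet, vehicle and the individual liver cannot be told apart.

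The next question was what JT003 changed in the high-fat diet liver. Of the 10 genes, 0 were called higher and 2 lower, *Cidea* and *Cidec*, while 0.743% and 0.884% of all 17090 genes tested were called higher and lower. *Cidea* had 18 reads with JT003 against 386 without it (log2 ratio -4.30, -5.22 to -3.77), rank 2 among the decreases of 9670 such genes. *Cidec* was 3.48-fold lower (233 against 802 reads, log2 ratio -1.80, -2.02 to -1.59). In this library *Cidec* was at its lowest of the diet model, and *Cidea* stood between SD and HFD. With an assumed coefficient of variation of 0.2 between livers, *Cidea* was still called and *Cidec* was not, and with 0.4 neither was.

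*G0s2* had a log2 ratio of 0.65 (0.55 to 0.75) and *Plin5* one of 0.32 (0.19 to 0.45), both below the threshold. *Plin2* had -0.29 (-0.32 to -0.25) and *Plin3* -0.46 (-0.60 to -0.32). *Pnpla2* (0.02, -0.07 to 0.12) and *Plin4* (-0.01, -0.12 to 0.09) had intervals that included 0. The ratio of *G0s2* to *Pnpla2* FPKM was 3.99 with JT003 and 2.59 without. Scaling the libraries to *Actb* moves all genes of a comparison by nearly the same amount, set by *Actb* itself. It turned the ratios of *Plin2*, *Plin4* and *Cideb* to 0.05, 0.32 and 0.06.

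*Cidea* and *Cidec* stood differently against SD in the JT003 library. In HFD plus JT003 against SD, 1 gene was called higher (*Plin4*, log2 ratio 1.34, 1.20 to 1.49) and 5 lower, where 3.16% and 2.76% of 17012 genes were called higher and lower. *Cidea*, with 18 reads against 4, was no longer called (1.65, 0.45 to 4.08). *Cidec* was 25.0-fold below SD (-4.64, -4.85 to -4.47), farther from it than the HFD library was. The other genes called lower were *Plin2* (-2.28), *Plin5* (-2.04), *Pnpla2* (-1.89) and *G0s2* (-1.33). Both diet comparisons share the SD library.

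**Figure D4:**
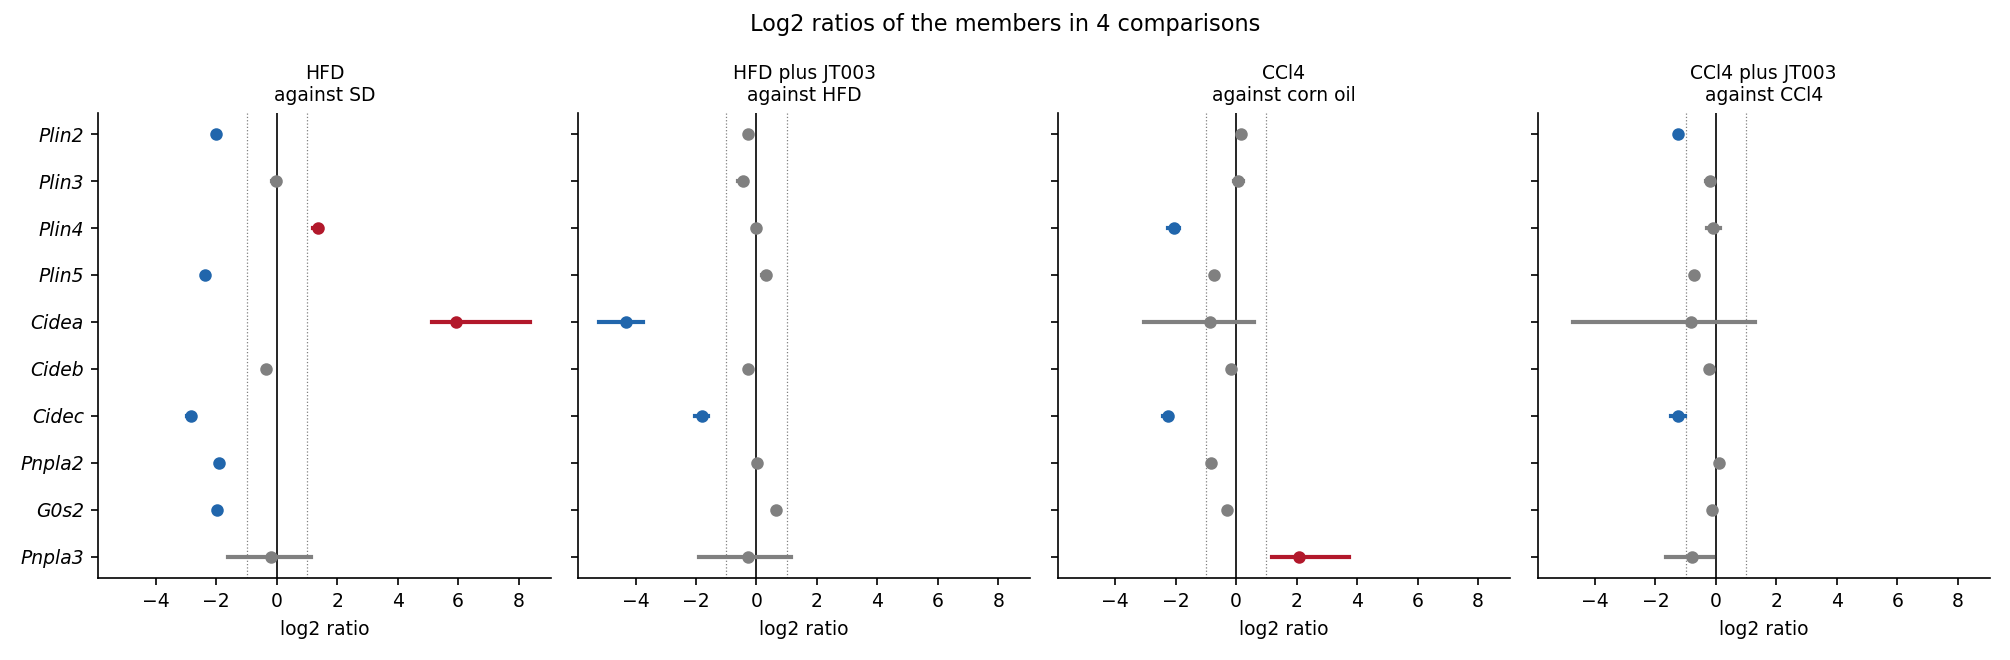
Log2 ratio of each gene (points, horizontal axis) with its 95% counting interval (lines) in 4 comparisons between libraries. Red marks genes called higher, blue genes called lower and grey genes not called, with dotted lines at -1 and 1. *Cidec* is blue in all 4 panels (-2.85, -1.80, -2.27 and -1.25), whereas *Cidea* is red in HFD (5.94) and blue with JT003 (-4.30).

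In the CCl4 model, the question was how the injured liver differed from the vehicle. Of the 10 genes, 1 was called higher (*Pnpla3*) and 2 lower (*Cidec* and *Plin4*), where 4.76% and 2.41% of 17234 genes were called higher and lower. *Cidec* was 4.81-fold lower (503 against 1987 reads, log2 ratio -2.27, -2.41 to -2.13). *Plin4* was 4.14-fold lower (325 against 1106 reads, -2.05, -2.24 to -1.88). *Plin4* was thus lower in this model and higher in HFD against SD, and *Cidec* lower in both. For *Plin4* this depends on the control, since corn oil was itself called above SD. With TMM over all 6 libraries, the log2 ratio of SD to CCl4 for *Plin4* was 0.88 (0.68 to 1.08), under the threshold. Among 11 adipocyte markers tested in CCl4 against corn oil, 2 were called lower and 0 higher. The 2 were *Cfd* (175 reads in corn oil and 2 in CCl4) and *Fabp4* (195 and 87 reads). *Adipoq* had 11 and 1 reads, *Retn* 5 and 0 and *Plin1* 6 and 0. The markers *Npr3* (8 and 32 reads, log2 ratio 1.51) and *Car3* (9536 and 15312 reads, 0.39) went the other way, neither called. The part of adipose RNA in the *Plin4* values was not tested.

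*Pnpla3* had 7 reads in corn oil, 43 in CCl4 and 24 when JT003 was added to CCl4, beside 8 to 11 in the diet libraries. The CCl4 library was the high one, at 0.46 FPKM against 0.08 in corn oil (log2 ratio 2.07, 1.17 to 3.73). At these counts the gene remained rare in all 6 libraries, and its expected counts were whole in none, as happens where reads are divided between genes. Expected counts of *Cideb* and *Plin3* were also whole in none of the 6 libraries. Of 10 macrophage markers, 8 were also called higher in CCl4 against corn oil, and their summed FPKM was 43.9 in corn oil, 143 in CCl4 and 197 when JT003 was added to CCl4, beside 151 to 207 in the diet libraries. Their sum was thus higher with JT003 than without it, where *Pnpla3* had fewer reads. The sum was also high in the diet libraries, where *Pnpla3* had 8 to 11. Single macrophage markers did not all follow the sum. For JT003 against CCl4 their median log2 ratio was 0.33, with 1 called higher, *Marco* (2.93), and 1 lower, *Gpnmb* (-1.86). *Gpnmb* had 14 reads with the vehicle, 843 after CCl4 and 232 once JT003 was given, and *Trem2* had 6, 193 and 105. Both were highest in the CCl4 library, as *Pnpla3* was. Among 10 stellate cell markers, 2 were called higher in CCl4 and 2 lower with JT003, *Col1a1* (log2 ratio -1.51) and *Acta2* (-1.24). The stellate cell sums were 80.2, 107 and 112 FPKM, and 18.7, 60.5 and 40.6 without *Dcn*, which made up most of them in corn oil. The part of these cell types in the *Pnpla3* and *Plin2* values was not tested.

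*Plin2* had 22002 reads in corn oil and 30237 in CCl4 (log2 ratio 0.17, 0.15 to 0.20), and scaling to *Actb* turned this to -0.14. *Pnpla2* (-0.83, -0.89 to -0.76) and *Plin5* (-0.74, -0.81 to -0.66) were below the vehicle without reaching the threshold. *G0s2* differed less (-0.31, -0.37 to -0.26), and the *G0s2* to *Pnpla2* ratio was 3.97 in corn oil and 5.66 in CCl4. *Cideb* and *Plin3* had log2 ratios of -0.18 and 0.07. *Cidea*, with 9 and 5 reads, could not be compared at this depth (-0.87, -3.06 to 0.60).

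For JT003 in the CCl4 model, 0 genes were called higher and 2 lower, *Cidec* and *Plin2*, where 1.91% and 2.51% of 17393 genes were called higher and lower. *Cidec* was 2.38-fold lower (212 against 503 reads, log2 ratio -1.25, -1.50 to -1.02). *Plin2* was 2.35-fold lower (12937 against 30237 reads, -1.24, -1.27 to -1.21). Scaled to *Actb*, the ratios were -0.89 and -0.87, and neither gene was called. *Plin5* had a log2 ratio of -0.73 (-0.83 to -0.64), *Pnpla3* -0.80 (-1.64 to -0.10), *G0s2* -0.13 (-0.18 to -0.08) and *Pnpla2* 0.11 (0.04 to 0.18).

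Against corn oil, the CCl4 plus JT003 library had 0 of the 10 genes called higher and 4 lower, where 3.23% and 1.72% of 17338 genes were called higher and lower. The 4 genes were *Cidec* (log2 ratio -3.51, -3.74 to -3.32), *Plin4* (-2.13, -2.33 to -1.96), *Plin5* (-1.47, -1.56 to -1.38) and *Plin2* (-1.07, -1.10 to -1.03). With library sizes taken as total reads, *Plin2* stood at -0.76 and was not called. *Cidec* was the farthest from the vehicle of the 10.

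A further column of expected counts was deposited for CCl4, pooled by the authors over libraries that its table does not name. It summed to 2.97 times the CCl4 library, and 24 genes had less in it than in that library. That the pool holds the CCl4 library and other CCl4 livers is inferred from these values and is not stated. Under that inference, taking the library away left 1.97 times its total, called the other CCl4 counts here. Of 17465 genes, 6.87% were called higher and 2.79% lower in them than in corn oil. *Pnpla3* had 87 reads in them and a log2 ratio to corn oil of 2.09 (1.15 to 3.61), beside 2.07 in the CCl4 library. *Cidec* (-2.81, -2.94 to -2.70) and *Plin4* (-1.58, -1.71 to -1.46) were lower than in corn oil here too. *G0s2*, *Pnpla2* and *Plin2* stood differently against corn oil in these counts than in the CCl4 library. *G0s2* (-1.45, -1.51 to -1.40) and *Pnpla2* (-1.33, -1.39 to -1.27) were called lower than in corn oil, and *Plin2* had -0.49 (-0.52 to -0.47) in place of 0.17. *Plin3* (0.02 beside 0.07) and *Plin5* (-0.90 beside -0.74) differed less.

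The CCl4 library itself was called higher than the other CCl4 counts for *G0s2*, 2.16-fold (log2 ratio 1.11, 1.06 to 1.16), and *Plin2* was 1.55-fold higher (0.63, 0.61 to 0.65). Of all 17471 genes tested, 0.246% were called higher and 1.38% lower in the CCl4 library. In CCl4 plus JT003 against the other CCl4 counts, 1.30% of 17554 genes were called higher and 3.33% lower, and 0 of the 10 genes in either direction: *Cidec* had -0.74 (-0.97 to -0.52), *Plin2* -0.61 (-0.64 to -0.58) and *Plin5* -0.61 (-0.69 to -0.52). *G0s2* had a log2 ratio of 0.97 (0.92 to 1.03) there, opposite in sign to the -0.13 against the CCl4 library.

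**Figure D5:**
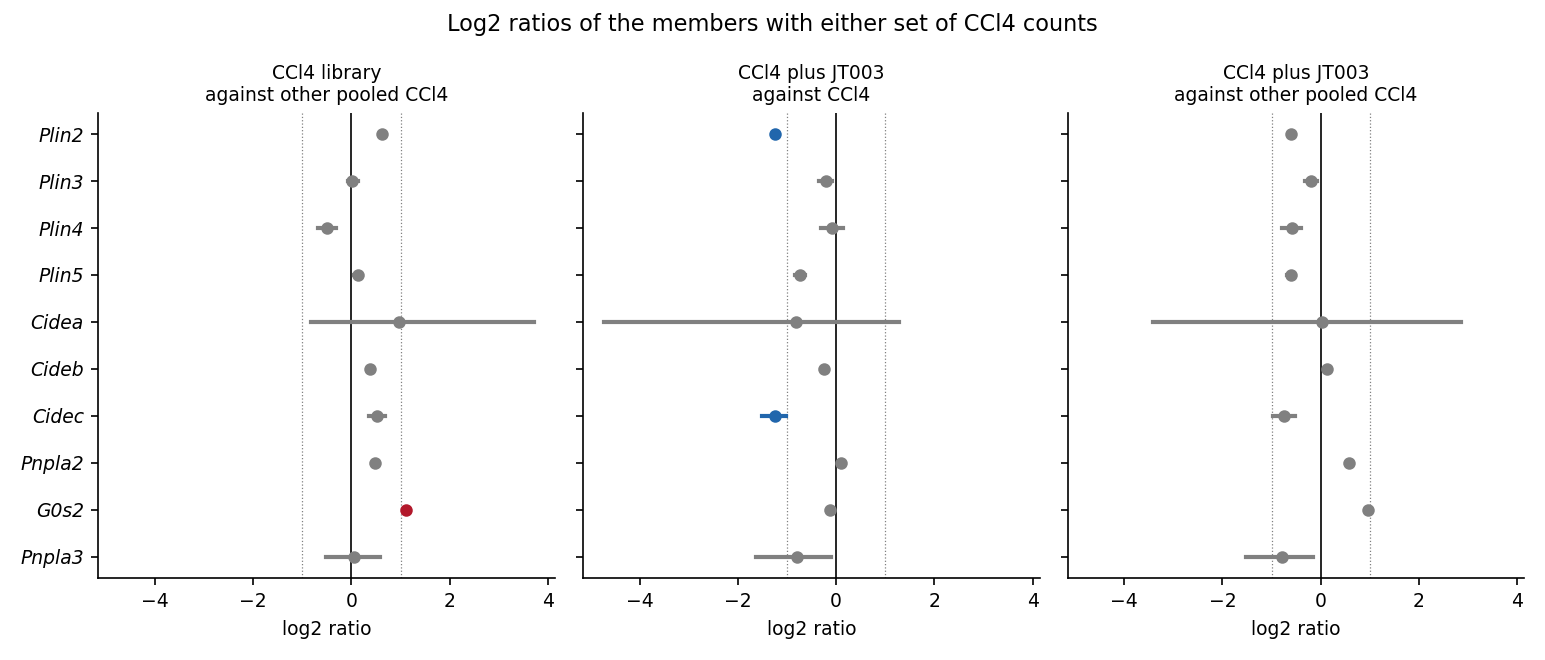
Log2 ratio of each gene (points, horizontal axis) with its 95% counting interval (lines) for the CCl4 library against the other pooled CCl4 counts, and for CCl4 plus JT003 against each of these. Red marks genes called higher, blue genes called lower and grey genes not called, with dotted lines at -1 and 1. *Cidec* and *Plin2* are blue in the middle panel (-1.25 and -1.24) and grey in the right one (-0.74 and -0.61).

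Other genes of the same pathway were read from lists. Of 13 other droplet proteins found, 1 was called higher and 1 lower in HFD against SD, *Fitm1* (log2 ratio 1.37), which helps droplets form, and *Hilpda* (-1.25), an inhibitor of the *Pnpla2* lipase. *Fitm1* had 313 reads in SD, 865 in HFD, 526 in HFD plus JT003, 813 in corn oil, 35 in CCl4 and 8 when JT003 was added to CCl4, so it was high in corn oil as in HFD and low with CCl4, as *Plin4* was. It was called lower in CCl4 against corn oil (-4.74) and with JT003 against CCl4 (-1.90). *Hsd17b13*, a droplet enzyme of hepatocytes, was called in no comparison and had 290.53 FPKM in HFD and 395.35 in SD. *Plin1* had at most 6 reads in any library. With JT003 in the diet model, 0 of these proteins were called.

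Among 16 other lipases and lipase partners tested in HFD against SD, 1 was called higher and 4 lower. *Mgll*, which completes triglyceride breakdown, was lower (log2 ratio -1.63), as were *Ddhd2* (-1.59), *Lipa*, the lysosomal lipase (-1.20), and *Pnpla7* (-1.16). *Ces1g* was higher (1.46). Partners of the *Pnpla2* lipase differed less: *Abhd5*, its activator, had a log2 ratio of 0.33 and *Lipe*, the hormone-sensitive lipase, -0.55. With JT003 in the diet model, *Ces1d*, a carboxylesterase of the liver that hydrolyses triglyceride, was the gene called, higher (4958 and 20807 reads, 2.05). Members of the Ces1 family are close copies, and their counts are uncertain where reads were shared. In CCl4 against corn oil, *Ces1g* was called higher (1.55), and with JT003 in that model *Pnpla1* was (1.29).

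Of 16 triglyceride synthesis genes, 1 was called higher in HFD against SD, *Lpin1*, a phosphatidate phosphatase (log2 ratio 2.04), and 2 lower, *Gpat4* (-1.46) and *Lpin2* (13258 reads in SD and 7061 in HFD). *Dgat2*, the enzyme of the last step, had 0.98 and *Mogat1* 0.76, neither called. JT003 gave no call in the diet model, and in the CCl4 model 1 lower, *Gpam* (-1.24), the mitochondrial acyltransferase of the first step. Of 6 triglyceride secretion genes, 2 were called lower in HFD against SD, *Mttp* (-1.14), which loads lipid onto ApoB, and *Tm6sf2* (-1.10). In each of the other 5 comparisons, 0 of the 6 were called.

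Of 15 transcription factors, 2 were called higher in HFD against SD, *Pparg* (log2 ratio 1.35) and *Srebf1* (1.50), the factor of fatty acid synthesis. *Ppara* had 72.90 FPKM in SD, 67.88 in HFD, 83.04 in HFD plus JT003, 36.53 in corn oil, 35.14 in CCl4 and 38.16 when JT003 was added to CCl4, and was called in none of the 6 comparisons. JT003 gave no call among the factors in either model. In CCl4 against corn oil, 1 was called lower, *Ppargc1b* (-1.57). The median log2 ratios of the lists in HFD against SD were -0.29 for other droplet proteins, 0.01 for lipases, -0.07 for synthesis, -0.18 for secretion and -0.02 for transcription factors, all closer to 0 than the -1.13 of the 10 genes. Because members and lists were chosen with earlier results of these data known, this contrast is a description only.

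Hepatocyte markers were abundant in every library, with *Alb* at 25390.86 to 36569.95 FPKM and summed levels of 54536 to 72870 FPKM. In HFD against SD, 1 of the 10 hepatocyte markers was called lower and 0 higher, and in CCl4 against corn oil 2 were lower and 1 higher.

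Genes whose levels followed a member most closely were ranked by the Pearson correlation of log2(FPKM + 0.1) over the 6 libraries, among 841 genes that reached 100 counts and spanned a log2 range of 2. With 6 points that share 2 models this is a description. Among the genes that followed *Plin2* were *Elovl5*, a fatty acid elongase (r = 0.962), *Fabp5*, a fatty acid binding protein (0.948), *9430037G07Rik* (0.944) and *Rnf144a* (0.935). *Elovl5* had 524.00 FPKM in SD, 112.76 in HFD, 91.01 in HFD plus JT003, 290.99 in corn oil, 327.22 in CCl4 and 117.08 when JT003 was added to CCl4. *Cidec* was followed by *Lad1* (0.989), *Npnt* (0.984), *Agap2* (0.958), *Cntnap1* (0.951) and *Phospho1* (0.935). *Pnpla3* was followed by *Cd63* (0.993), *Src* (0.988), *Tagln2* (0.979), *Ptgr1* (0.978) and *Pck2* (0.977), all highest in the CCl4 library. *Pnpla3* itself did not reach 100 counts, with 43 reads in CCl4 and only 7 in corn oil to 11 in SD outside the libraries given CCl4. Its correlations therefore rest mostly on the 2 libraries given CCl4.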

How the data were processed

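Liver RNA was sequenced on BGISEQ-500 in 6 libraries, 1 per condition. Per the labels' processing notes, HISAT, Bowtie2 and RSEM were used with build mm9. The authors deposited an expected count per gene, which is RSEM's estimate and divides reads shared between genes, and an FPKM value, in which that count is divided by transcript length and by library depth. About 70% of the expected counts were whole numbers (69.9% to 70.9%). Of the authors' 4 comparison tables, which hold ratios and p-values of their own, the pooled CCl4 expected counts were used. The other 7 expression columns and all fold changes and p-values were not used.

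Expected counts were rounded. TMM factors (edgeR 4.0.16, R 4.3.3) came from the 3 libraries of a model. Genes with at least 1 read were tested on the reads of 2 libraries (exact conditional binomial, two-sided, scipy 1.17.1), with Benjamini-Hochberg adjustment over all genes tested, and called where the log2 ratio (prior count 2) reached 1 in size and the adjusted p-value was under 0.001. Intervals are 95% Clopper-Pearson and cover counting error only. The test was checked on simulated counts. There were 6 comparisons, and those with the corn oil library or the other CCl4 counts outside a model used TMM over all libraries. Alternatives included DESeq2 1.42.0 size factors and edgeR's exact test with an assumed coefficient of variation of 0.2 or 0.4. Members and lists were chosen with earlier results of these data known. All 10 members are named. From each other list, the text names up to 4 genes with the largest called ratios and at least 100 counts in the higher library, plus fixed partner genes. Marker genes and *Retn*, *Ucp1* and *Car3* were named as markers. Upstream sequences came from RefSeq (GRCm38.p6). A result of the ranking of similar genes is not reported here.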

Additional observations from a re-analysis of the deposited data

Results flagged for a closer look

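*Plin2*, *Plin4*, *Plin5* and *G0s2* had ratios of opposite sign in the 2 models, each from 1 library per condition, and the difference between the models was not tested. For *Plin2*, the log2 ratio of the model to its control was -2.00 in the diet model and 0.17 in the CCl4 model. For *Plin4*, it was 1.35 in the diet model and -2.05 in the CCl4 model. For *Plin5*, the log2 ratio of JT003 to the model without it was 0.32 with the diet and -0.73 with CCl4. For *G0s2*, it was 0.65 with the diet and -0.13 with CCl4. The opposite sign was lost under other settings for 2 of them. *G0s2* in the CCl4 model was 0.24 scaled to *Actb*, and 0.51 or 0.98 with the pooled CCl4 counts or those less the CCl4 library. *Plin2* there was -0.14, -0.22 and -0.46 under the same settings. With the corn oil library as the control of the diet, *Plin2* stood at -0.79 and *Plin4* at 0.15.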

How the results depend on the processing

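Of 774 values recomputed under the alternatives, 676 kept their direction and their side of the threshold, 45 lost the call, 28 gained it and 25 changed sign. With an assumed coefficient of variation of 0.4 between livers, the count of members called was 1 in HFD against SD and 0 in each of the other 5 comparisons. With 0.2 it was 1 for HFD plus JT003 against HFD, 0 for CCl4 plus JT003 against CCl4, and 2 for CCl4 plus JT003 against corn oil. Without a threshold on the log2 ratio it was 7 for HFD plus JT003 against HFD, 8 for CCl4 against corn oil, 5 for CCl4 plus JT003 against CCl4 and 7 for CCl4 plus JT003 against corn oil. Scaled to *Actb*, it was 5 in CCl4 against corn oil and 0 for JT003 against CCl4. With the pooled CCl4 counts, or those less the CCl4 library, JT003 against CCl4 gave 0 and 0, and the latter against corn oil gave 5. Shares of all genes called with assumed variation, without the threshold, scaled to *Actb* or with the pooled counts are not given here. The counts of members under those settings therefore have no background to be read against. Without the threshold, small ratios of deeply read genes can be called. For JT003 against CCl4, *G0s2* had a log2 ratio of -0.13 and an adjusted p-value of 1.6e-05 in the exact conditional binomial test.

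Changes of sign were in ratios near 0 in most cases. Scaling to *Actb* gave 0.06 for *Cideb*, 0.05 for *Plin2* and 0.32 for *Plin4* in HFD plus JT003 against HFD. It gave -0.14 for *Plin2* and -0.24 for *Plin3* in CCl4 against corn oil, and 0.12 for *Cideb*, 0.16 for *Plin3*, 0.28 for *Plin4* and 0.24 for *G0s2* in CCl4 plus JT003 against CCl4. Total reads gave 0.11 for *Plin3* in HFD against SD, 0.05 for *Cideb* in CCl4 against corn oil and 0.17 for *Plin3* in CCl4 plus JT003 against corn oil, and log2 FPKM with a pseudocount of 0.1 or 1 gave 0.11 and 0.10, 0.05 and 0.05, and 0.17 and 0.16 for the same values. The corn oil library in place of SD, chosen after the data were seen, gave 0.22 for *Pnpla3*. In CCl4 against corn oil, *Plin2* was -0.22 with the pooled counts and -0.46 with those less the CCl4 library, scaled within the model. In CCl4 plus JT003 against CCl4, *G0s2* was 0.51 and 0.98 under the same 2 changes, and *Cidea* 0.03 and *Cideb* 0.13 under the latter. Scaling to *Actb* moved all genes of a comparison by nearly the same amount, set by the *Actb* counts of the 2 libraries. Why *Actb* differed, and the cause of the other changes, was not tested. No paired analysis was possible because each condition had 1 library, and no library could be left out of a group. Depth limits *Cidea* outside HFD and *Pnpla3* everywhere.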

Other observations

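The deposited transcript length of *Cidec*, an average over its transcripts weighted by their estimated share, was 1703.51 bases in SD, 1704.08 in HFD, 1712.13 in HFD plus JT003, 1702.00 in corn oil, 1705.32 in CCl4 and 1709.89 when JT003 was added to CCl4. The JT003 library had the longest average within each model, and also the fewest *Cidec* reads, 233 with the diet and 212 with CCl4. That of *Plin5* was 1978.83, 1961.87, 1959.69, 1970.35, 1973.73 and 1959.70 bases in the same order. How far these shifts exceed the error of the estimate is unknown.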
